A study of Mus musculus with 19 samples.

Results

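The receptors for interleukin-2 (IL-2) and interleukin-7 (IL-7), the kinase and the STAT factor they act through, and the feedback inhibitors they induce were followed as 10 genes in CD8 and CD4 T cells from liver metastases of mice with and without the DNA demethylase gene Tet2 in blood cells or T cells. The genes Il2ra, Il2rb, Il2rg, Il7r, Jak3, Stat5a, Cish, Socs1, Socs2 and Socs3 were taken by name from the 25639 genes of each expression table. All 10 were present in both tables, and all 10 passed the filter on low values in both cell types, Socs2 in CD8 cells through the 3 Tet2fl/fl libraries and 1 Cd4CreTet2KO library.

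IL-2 is bound by an alpha chain (Il2ra, CD25), a beta chain (Il2rb, CD122) and the common gamma chain (Il2rg, CD132), whereas the IL-7 receptor joins its own alpha chain (Il7r, CD127) to the same gamma chain. The gamma chain carries the kinase JAK3, the receptors activate STAT5, and STAT5 induces Cish and Socs genes, whose products dampen the receptors and kinases above them. In T cells, Il7r is known as a gene of naive and memory cells, Il2rb as a gene kept high in effector and chronically stimulated CD8 cells, and Il2ra as a gene of activated and regulatory T cells.

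The study asked how loss of Tet2 in blood cells bears on T cells that infiltrate a metastatic tumour. Vav1CreTet2KO mice delete floxed Tet2 with a Cre driven from Vav1, which is active in blood cells of all lineages. Cd4CreTet2KO mice delete it with a Cre driven from Cd4, which is switched on in the thymus before CD4 and CD8 cells part and so reaches both. Tet2fl/fl control mice carry the floxed alleles. All mice had received Venus-AKTPM/LOH colorectal cancer cells in the spleen, and T cells of their liver metastases were collected on day 30 and sorted on CD45, CD3ε, CD4 and CD8α. CD8 cells gave 3 Vav1CreTet2KO, 4 Cd4CreTet2KO and 3 Tet2fl/fl libraries, and CD4 cells gave 3 of each genotype. Replicates within a group were separate animals, 11 in all for the 19 libraries, with CD8 and CD4 cells both sequenced in 8. Libraries were made from total RNA with a stranded low-input kit. Levels are given in RPKM, the reads of a gene divided by its length and by the depth of the library.

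The libraries held 707866 to 20327809 reads on genes, and the lowest total was that of CD4 Vav1CreTet2KO replicate 1. In CD8 Vav1CreTet2KO replicate 1, 50.6% of the read counts from 1 to 20 were odd numbers, against 13.1% to 30.7% in the other libraries, so results that rest on it are also given without it. Cd8a and Cd8b1 together came to 231 to 428 RPKM in CD8 libraries and to 0 to 8.01 RPKM in CD4 libraries, while Cd4 and Cd40lg together came to 0 to 12.6 RPKM in CD8 libraries and to 82.8 to 179 RPKM in CD4 libraries. Tet2 itself was at 6.28, 5.57 and 2.93 RPKM in CD8 Vav1CreTet2KO cells and at 7.57, 4.40, 3.01 and 5.02 RPKM in CD8 Cd4CreTet2KO cells, against 7.65, 8.06 and 6.57 RPKM in CD8 Tet2fl/fl cells. In CD4 cells, Tet2 was at 4.31, 5.65 and 2.77 RPKM in Vav1CreTet2KO libraries and at 4.53, 7.28 and 4.80 RPKM in Cd4CreTet2KO libraries, against 4.23, 7.02 and 3.87 RPKM in Tet2fl/fl libraries. A value over the whole gene cannot show the loss of a floxed exon, so these levels do not check the genotypes. Several marker sums moved with genotype. The 4 MHC class II genes, which mark antigen-presenting cells, summed to 973 to 2680 RPKM in CD8 Vav1CreTet2KO libraries and 322 to 2816 RPKM in CD8 Cd4CreTet2KO libraries, against 55.8 to 387 RPKM in CD8 Tet2fl/fl libraries. In CD4 cells they summed to 388 to 798 RPKM in Vav1CreTet2KO libraries and 88.2 to 221 RPKM in Cd4CreTet2KO libraries, against 82.9 to 198 RPKM in Tet2fl/fl libraries, so that both Vav1CreTet2KO groups lay above their controls without overlap. The sum of Cd8a and Cd8b1 was lower without overlap in CD8 Cd4CreTet2KO libraries, at 231 to 301 RPKM, against 335 to 428 RPKM in CD8 Tet2fl/fl libraries. Cd8b1 alone overlapped, at 127.9 to 182.5 RPKM against 156.1 to 197.9 RPKM. Heat shock genes, 6 in number, summed to 1151 to 1509 RPKM in CD8 Vav1CreTet2KO cells and 1109 to 1323 RPKM in CD8 Cd4CreTet2KO cells, against 2617 to 3741 RPKM in CD8 Tet2fl/fl cells, and in CD4 cells to 835 to 1536 RPKM in Vav1CreTet2KO and 1067 to 1261 RPKM in Cd4CreTet2KO libraries, against 2686 to 4263 RPKM in CD4 Tet2fl/fl cells. Besides, 7 dendritic cell genes summed to 53.8 to 104 RPKM in CD8 Vav1CreTet2KO libraries and 26.2 to 171 RPKM in CD8 Cd4CreTet2KO libraries, against 6.78 to 26.5 RPKM in CD8 Tet2fl/fl libraries, with none of the 7 at 0 in any knockout CD8 library. The 10 macrophage genes summed to 267 and 142 RPKM in CD8 Cd4CreTet2KO replicates 1 and 2, against 5.87 to 47.9 RPKM in the other CD8 libraries, and 3 neutrophil genes summed to 84.4 and 48.0 RPKM in the same 2 libraries, against 0.0242 to 2.78 RPKM in the other CD8 libraries. The part of these RNAs in the values below was not tested. Values without the 2 macrophage-marked libraries are given only for Il7r, Il2rb and Socs3, and not for the other genes. Without them, limma called 0 of the 10 genes in CD8 Cd4CreTet2KO against Tet2fl/fl cells, beside 0 genes in all. In bulk samples, fewer cells of a type and less RNA per cell cannot be told apart.

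**Figure D1:**
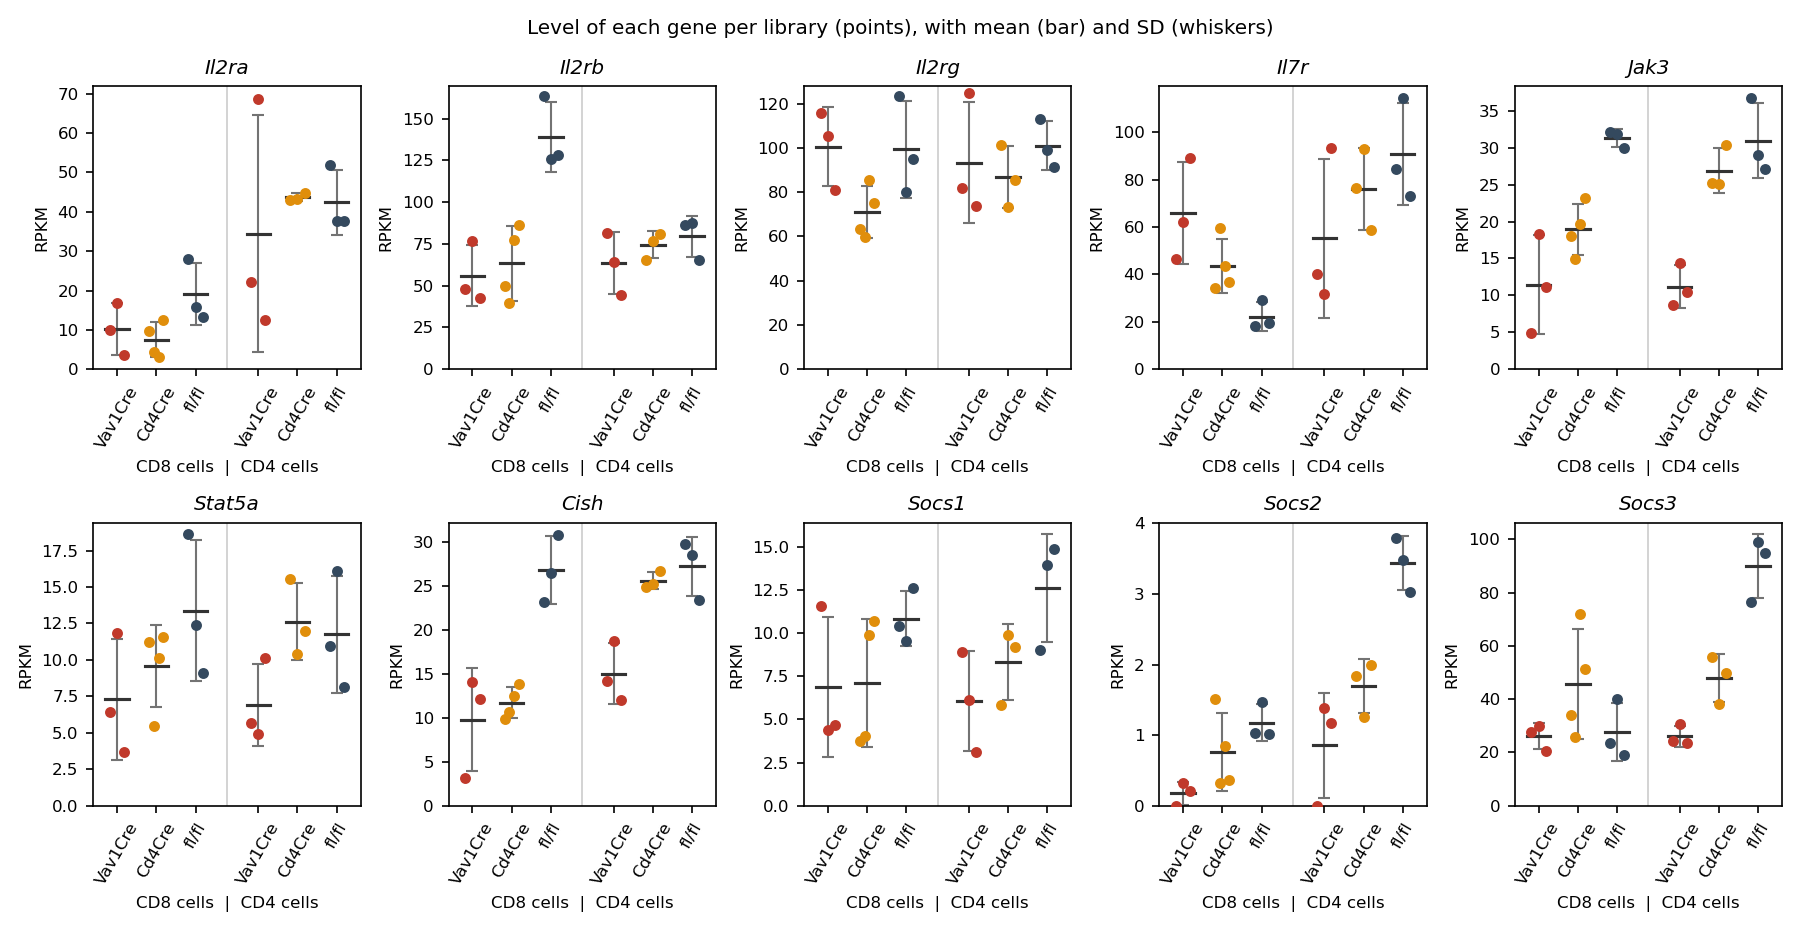
Level of each of the 10 genes in RPKM (vertical axes, linear, starting at 0) in the 19 libraries, with CD8 groups left and CD4 groups right of the grey line. Points are libraries, bars are group means and whiskers are SD. Il7r in CD8 Vav1CreTet2KO cells (46.4 to 89.0 RPKM) lies above CD8 Tet2fl/fl cells (18.1 to 29.1 RPKM), while Il2rb, Jak3 and Cish lie below them.

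In CD8 cells, Il7r was the gene that rose with Tet2 loss in blood cells, and Il2rb, Jak3 and Cish were lower in every Vav1CreTet2KO library than in any Tet2fl/fl library without passing the test. Il7r averaged 65.8 ± 21.6 RPKM in Vav1CreTet2KO cells and 22.2 ± 5.99 RPKM in Tet2fl/fl cells (SD, n = 3 each). The other receptor chain of the IL-7 receptor, Il2rg, stood at 101 ± 17.9 RPKM in Vav1CreTet2KO cells and 99.4 ± 21.97 RPKM in Tet2fl/fl cells. Of the 10 genes, 1 was higher and 0 were lower at an adjusted p under 0.05 (limma, Benjamini-Hochberg adjustment over 10224 genes), where 0.45% of all genes tested were called higher and 1.01% lower, and 6 of the 10 had an unadjusted p under 0.05, as did 17.3% of all genes. The median log2 fold change of the 10 genes was -0.87, beside -0.11 over all genes tested.

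Il7r was at 46.4, 62.0 and 89.0 RPKM in the 3 Vav1CreTet2KO libraries and at 34.4, 59.8, 43.5 and 36.7 RPKM in the 4 Cd4CreTet2KO libraries, against 18.1, 29.1 and 19.5 RPKM in the 3 Tet2fl/fl libraries. Every knockout library of either kind was above every Tet2fl/fl library. In Vav1CreTet2KO cells Il7r rose by 1.51 on the log2(RPKM + 1) scale (SE 0.31, 95% interval 0.84 to 2.17, limma adjusted p = 0.0314). That call ended when any 1 of 5 libraries was left out (each of the 3 Tet2fl/fl libraries, Vav1CreTet2KO replicate 2 or replicate 3), with limma adjusted p values of 0.0505 to 0.192, and it held at 0.0282 without Vav1CreTet2KO replicate 1. With edgeR on whole reads recovered from the RPKM values the log2 fold change was 1.69 and the adjusted p 0.0612, and with DESeq2 on the same reads they were 1.70 and 0.0021. In Cd4CreTet2KO cells the log2 difference of Il7r from Tet2fl/fl cells was 0.94 (SE 0.29, interval 0.32 to 1.56, limma adjusted p = 0.166), and without the macrophage-marked replicates 1 and 2 it was 0.85 (adjusted p = 0.554). The authors' deposited table gives Il7r a false discovery rate of 0.00089 for Vav1CreTet2KO and 0.0347 for Cd4CreTet2KO CD8 cells. Cd4 and Cd40lg, which mark CD4 cells, where Il7r is high, summed to 8.50 to 12.6 RPKM in CD8 Vav1CreTet2KO libraries and 0.914 to 8.33 RPKM in CD8 Cd4CreTet2KO libraries, against 0 to 1.35 RPKM in CD8 Tet2fl/fl libraries. Cd4 itself was at 0.0955 to 1.59 RPKM in CD8 Vav1CreTet2KO libraries and at 0 to 7.68 RPKM in CD8 Cd4CreTet2KO libraries, and at 0 in all 3 CD8 Tet2fl/fl libraries. Cd40lg was at 7.82 to 12.5 RPKM in CD8 Vav1CreTet2KO libraries, against 25.3 to 56.2 RPKM of Cd40lg and 39.5 to 122.4 RPKM of Cd4 in CD4 Vav1CreTet2KO libraries.

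The promoter of Il7r is shown because it holds a copy of the STAT5 consensus, TTCNNNGAA, the 9-base palindrome that STAT5 dimers are known to bind, which reads the same on both strands. The windows are RefSeq sequences of build GRCm38.p6, from 250 bases before to 50 after the annotated start, 5′ to 3′ on the gene's strand, with the motif in capitals. The Il7r window lies at chr15:9529827-9530126 on the minus strand.
Il7r promoter: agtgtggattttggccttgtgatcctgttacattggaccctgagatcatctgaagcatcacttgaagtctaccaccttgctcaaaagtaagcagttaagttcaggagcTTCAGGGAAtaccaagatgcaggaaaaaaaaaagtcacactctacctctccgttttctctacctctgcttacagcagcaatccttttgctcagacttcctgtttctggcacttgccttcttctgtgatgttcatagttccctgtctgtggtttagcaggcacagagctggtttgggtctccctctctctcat
Its copy, TTCAGGGAA, stands at bases 109 to 117 of the 300. Among all 32851 promoter windows, 8.3% hold the motif. Of the 8 genes here with a window, 3 (Il7r, Cish and Socs3) hold it, and Il2rb and Socs2 had no window. A match in these letters is a description of the sequence and shows no binding.

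Il2rb, the beta chain shared by the IL-2 and IL-15 receptors, was at 48.3, 76.8 and 42.7 RPKM in Vav1CreTet2KO CD8 cells and at 50.0, 39.4, 77.6 and 86.3 RPKM in Cd4CreTet2KO CD8 cells, against 163, 126 and 127.99 RPKM in Tet2fl/fl CD8 cells. No knockout library reached the lowest Tet2fl/fl library. The log2 difference was -1.34 for Vav1CreTet2KO (SE 0.33, interval -2.05 to -0.62, limma adjusted p = 0.0667) and -1.18 for Cd4CreTet2KO (SE 0.31, interval -1.85 to -0.51, limma adjusted p = 0.112). It was called lower in Vav1CreTet2KO cells by DESeq2 on recovered reads (adjusted p = 0.00318) and by limma without Vav1CreTet2KO replicate 2 (adjusted p = 0.0406). Of the 6 limma fits with 1 library left out, 1 called it (adjusted p up to 0.285). Without replicate 1 its difference was -1.26 (limma adjusted p = 0.132). In Cd4CreTet2KO cells it was called by DESeq2 (adjusted p = 0.0384) and by limma with the compared groups alone (adjusted p = 0.0486), and in 0 of 7 limma fits with 1 library left out. Without the macrophage-marked libraries its difference was -0.75 (adjusted p = 0.594).

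Il2ra, the alpha chain that raises the affinity for IL-2, was low and variable in CD8 cells. It was at 10.1, 16.9 and 3.63 RPKM in Vav1CreTet2KO cells and at 9.73, 4.44, 3.07 and 12.6 RPKM in Cd4CreTet2KO cells, against 28.0, 15.9 and 13.2 RPKM in Tet2fl/fl cells. Vav1CreTet2KO libraries overlapped Tet2fl/fl libraries, whereas all Cd4CreTet2KO libraries lay below them, with a log2 difference of -1.34 (SE 0.50, interval -2.42 to -0.26, limma adjusted p = 0.269). Il2rg, at 116, 105 and 80.9 RPKM in Vav1CreTet2KO cells and 63.5, 59.5, 85.6 and 75.2 RPKM in Cd4CreTet2KO cells, against 123, 80.0 and 94.9 RPKM in Tet2fl/fl cells, overlapped in both comparisons. Its log2 difference in Vav1CreTet2KO cells was 0.02, with an interval of -0.54 to 0.58.

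Jak3, the kinase bound to the common gamma chain, was at 4.91, 18.4 and 11.1 RPKM in Vav1CreTet2KO CD8 cells and at 17.99, 14.9, 19.6 and 23.2 RPKM in Cd4CreTet2KO CD8 cells. The 3 Tet2fl/fl libraries were close together at 32.2, 31.9 and 29.9 RPKM, above all 7 knockout libraries. The log2 difference was -1.53 in Vav1CreTet2KO cells (SE 0.36, interval -2.31 to -0.76, limma adjusted p = 0.0567) and -0.71 in Cd4CreTet2KO cells (SE 0.34, interval -1.44 to 0.01, limma adjusted p = 0.417). Jak3 was called lower in Vav1CreTet2KO cells by DESeq2 on recovered reads (adjusted p = 0.0117) and by limma without Vav1CreTet2KO replicate 2 (adjusted p = 0.0141). Without replicate 1, the library of the lowest Jak3 level, its difference was -1.08 (adjusted p = 0.102). Of the 6 limma fits with 1 library left out, 1 called Jak3 (adjusted p up to 0.233). Stat5a, one of the 2 STAT5 genes, overlapped in both comparisons, at 6.40, 11.8 and 3.67 RPKM in Vav1CreTet2KO cells and 11.2, 5.45, 10.1 and 11.5 RPKM in Cd4CreTet2KO cells, against 18.6, 12.4 and 9.09 RPKM in Tet2fl/fl cells. Its log2 difference in Vav1CreTet2KO cells was -0.86 (interval -1.72 to -0.0033, limma adjusted p = 0.288).

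Among the feedback genes, Cish and Socs2 were lower in all Vav1CreTet2KO CD8 libraries than in any Tet2fl/fl library, and Socs1 and Socs3 overlapped. Cish, an early STAT5 target whose product binds activated cytokine receptors, was at 3.17, 14.1 and 12.2 RPKM in Vav1CreTet2KO CD8 cells and at 9.92, 10.6, 12.6 and 13.9 RPKM in Cd4CreTet2KO CD8 cells, against 23.2, 26.6 and 30.9 RPKM in Tet2fl/fl CD8 cells. All 7 knockout libraries lay below the Tet2fl/fl libraries. The log2 difference was -1.56 in Vav1CreTet2KO cells (SE 0.40, interval -2.43 to -0.69, limma adjusted p = 0.0776) and -1.13 in Cd4CreTet2KO cells (SE 0.38, interval -1.95 to -0.32, limma adjusted p = 0.208). Vav1CreTet2KO replicate 1 set much of the first value, which was -0.97 without it (adjusted p = 0.1), and without replicate 2 Cish was called lower (-1.90, adjusted p = 0.0405). Of the 6 limma fits with 1 library left out, 1 called Cish (adjusted p up to 0.233). The Cish and Socs3 promoters follow, since these feedback genes stand apart by genotype below and both hold the STAT5 consensus. Cish has 2 copies, TTCCTGGAA at bases 251 to 259 and TTCTTGGAA at bases 262 to 270, just past the annotated start, in the window at chr9:107296409-107296708 on the plus strand. Socs3 has 1 copy, TTCTTAGAA at bases 97 to 105, in the window at chr11:117969317-117969616 on the minus strand.
Cish promoter: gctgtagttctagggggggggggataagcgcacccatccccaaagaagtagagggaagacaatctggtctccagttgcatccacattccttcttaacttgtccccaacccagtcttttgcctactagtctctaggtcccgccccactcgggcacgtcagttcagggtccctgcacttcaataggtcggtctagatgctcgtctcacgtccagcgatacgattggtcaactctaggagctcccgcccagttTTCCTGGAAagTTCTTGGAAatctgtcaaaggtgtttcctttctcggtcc
Socs3 promoter: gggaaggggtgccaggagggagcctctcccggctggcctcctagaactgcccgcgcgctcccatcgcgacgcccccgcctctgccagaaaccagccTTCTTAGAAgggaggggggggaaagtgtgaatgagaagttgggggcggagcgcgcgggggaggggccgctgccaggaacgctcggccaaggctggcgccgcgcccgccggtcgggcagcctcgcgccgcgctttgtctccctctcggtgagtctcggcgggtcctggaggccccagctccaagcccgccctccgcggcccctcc

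Socs2, which in mice is known for restraining growth hormone signalling, was near the limit of detection in CD8 cells. It was at 0, 0.321 and 0.214 RPKM in Vav1CreTet2KO cells and at 1.51, 0.324, 0.844 and 0.361 RPKM in Cd4CreTet2KO cells, against 1.03, 1.48 and 1.02 RPKM in Tet2fl/fl cells. The 0 in Vav1CreTet2KO replicate 1 allows up to 0.0195 RPKM, from 3 reads, for counting error only. The log2(RPKM + 1) difference of Socs2 in Vav1CreTet2KO cells was -0.89 (SE 0.33, interval -1.60 to -0.17, limma adjusted p = 0.192), a scale that understates the change of genes this low. Socs2 passed the filter of 1 RPKM in at least 3 libraries only through the group where it is high and 1 Cd4CreTet2KO library, so its place among the genes tested rests mainly on that group. Socs1, which binds JAK kinases directly, was at 11.6, 4.41 and 4.65 RPKM in Vav1CreTet2KO cells and at 3.75, 4.03, 9.89 and 10.7 RPKM in Cd4CreTet2KO cells, against 10.4, 9.53 and 12.6 RPKM in Tet2fl/fl cells. Within each knockout group, Socs1 was below the lowest Tet2fl/fl library in 2 libraries and above it in the rest.

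Socs3, best known as the inhibitor of IL-6 family receptors, was at 27.8, 30.1 and 20.5 RPKM in Vav1CreTet2KO CD8 cells, against 23.6, 39.9 and 19.2 RPKM in Tet2fl/fl CD8 cells, with a log2 difference of -0.02 (interval -0.84 to 0.79). In Cd4CreTet2KO CD8 cells Socs3 was at 33.9, 25.6, 72.1 and 51.2 RPKM, and only replicates 3 and 4 lay above the highest Tet2fl/fl library. The log2 difference was 0.67 over the 4 Cd4CreTet2KO libraries (SE 0.35, interval -0.09 to 1.43, limma adjusted p = 0.480) and 1.18 without the macrophage-marked replicates 1 and 2 (adjusted p = 0.371).

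In all, 0 of the 10 genes were called in Cd4CreTet2KO CD8 cells, where limma called 0.567% of all genes tested, and 4 had an unadjusted p under 0.05, as did 12.4% of all genes. DESeq2 on recovered reads called 1 of the 10 there, Il2rb, beside 606 genes in all. Groups did not overlap for 1 gene higher (Il7r) and 4 lower (Il2rb, Jak3, Cish and Socs2) in Vav1CreTet2KO CD8 cells, where 6.92% of all genes lay higher and 12.9% lower without overlap, and Socs2 counts among the 4 through the filter described above. In Cd4CreTet2KO CD8 cells they did not overlap for 1 gene higher (Il7r) and 4 lower (Il2ra, Il2rb, Jak3 and Cish), where 3.85% of all genes lay higher and 14% lower. Both comparisons use the same 3 Tet2fl/fl libraries. For Vav1CreTet2KO CD8 cells the authors' deposited table gives false discovery rates of 0.00629 for Jak3, 0.0133 for Il2rb and 0.0410 for Cish. The median log2 difference of the 10 genes in Cd4CreTet2KO CD8 cells was -0.57, beside -0.15 over all genes tested.

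**Figure D2:**
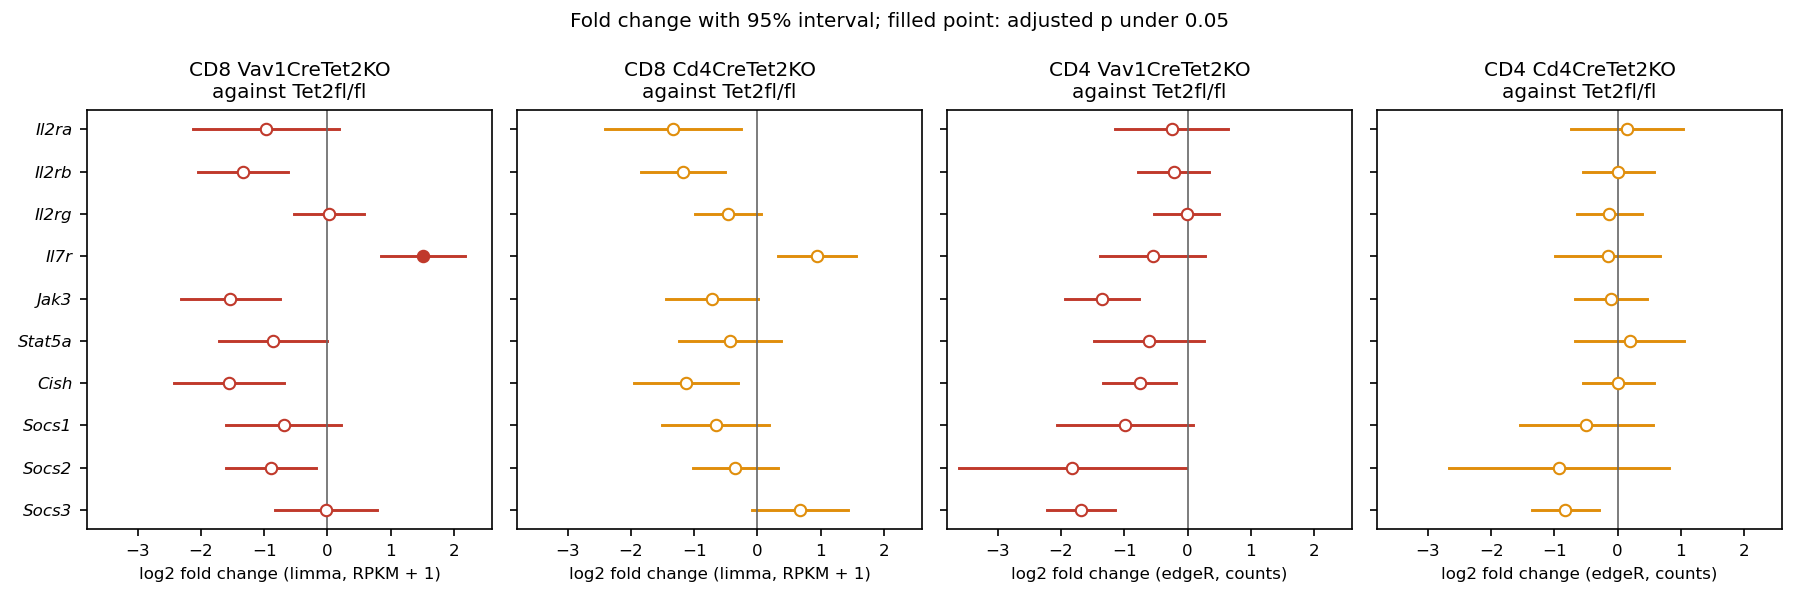
Log2 fold change (points) with 95% interval (lines) of the 10 genes in the knockout against Tet2fl/fl comparisons, CD8 cells in the left pair of panels (limma on log2(RPKM + 1)) and CD4 cells in the right pair (edgeR on counts). The filled point, Il7r in CD8 Vav1CreTet2KO cells at 1.51, is the one value with an adjusted p under 0.05.

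Within single libraries, the ratio of Il7r to Il2rb RPKM in CD8 cells was 0.960, 0.808 and 2.08 in Vav1CreTet2KO cells and 0.689, 1.52, 0.560 and 0.426 in Cd4CreTet2KO cells, against 0.111, 0.231 and 0.152 in Tet2fl/fl cells. The lowest knockout ratio was above the highest Tet2fl/fl ratio. That separation was fixed by the levels above, since every knockout library was higher for Il7r and lower for Il2rb than every Tet2fl/fl library. It is no further evidence. Il7r therefore made up 44.7% to 67.6% of the RPKM of the 2 receptor genes in Vav1CreTet2KO CD8 cells and 29.9% to 60.2% in Cd4CreTet2KO CD8 cells, against 9.97% to 18.8% in Tet2fl/fl CD8 cells. A ratio within a library does not depend on how libraries were scaled, and it shows unequal change of the 2 genes without saying which of them changed. In CD4 cells the ratio overlapped between genotypes, at 0.496, 0.493 and 2.11 in Vav1CreTet2KO cells and 1.17, 1.21 and 0.721 in Cd4CreTet2KO cells, against 0.981, 1.31 and 1.11 in Tet2fl/fl cells. The ratio of Socs3 to Cish, an inhibitor of IL-6 family signals over one of STAT5 signals, was 8.77, 2.14 and 1.69 in Vav1CreTet2KO CD8 cells and 3.42, 2.41, 5.74 and 3.69 in Cd4CreTet2KO CD8 cells, against 1.02, 1.503 and 0.621 in Tet2fl/fl CD8 cells, again with no overlap. In CD4 cells it ran the other way in both knockouts, without overlap with the control. It was at 1.70, 1.63 and 1.96 in Vav1CreTet2KO CD4 cells and at 2.25, 1.51 and 1.86 in Cd4CreTet2KO CD4 cells. In Tet2fl/fl CD4 cells it was at 2.57, 3.46 and 4.03. These ratios were computed after the levels were seen and carry no test.

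**Figure D3:**
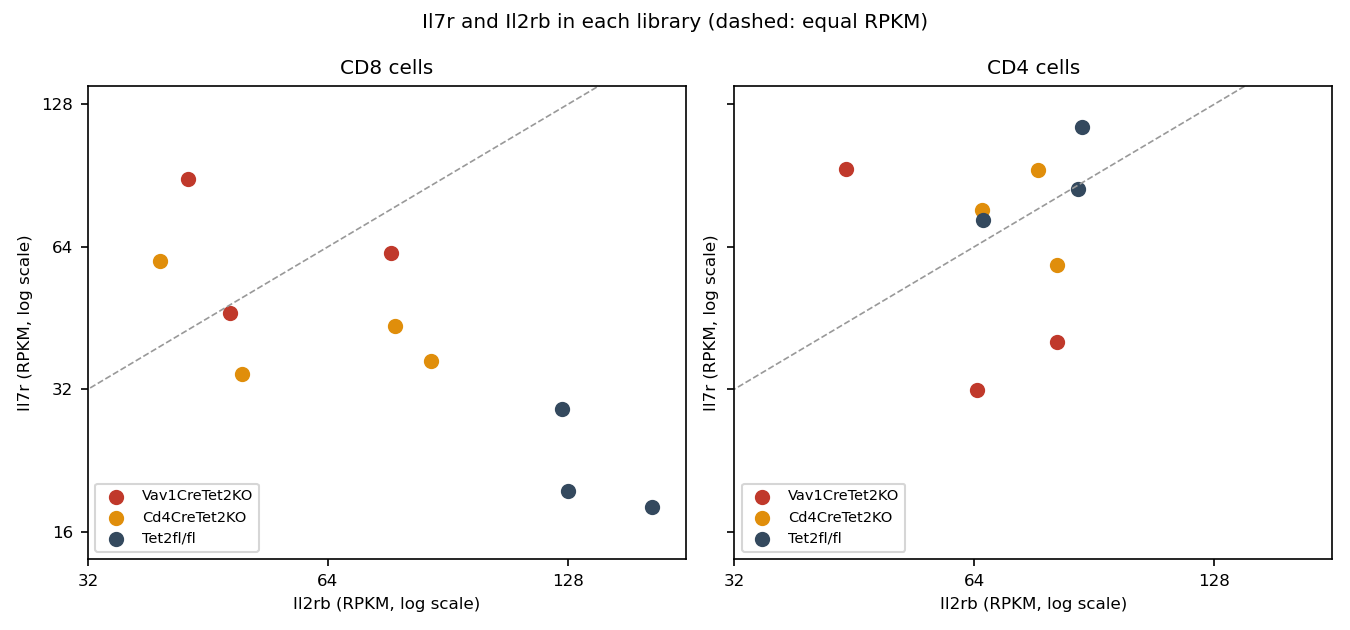
Il7r against Il2rb in RPKM (both axes logarithmic) for each CD8 library (left) and CD4 library (right), coloured by genotype, with equal levels on the dashed line. CD8 Tet2fl/fl libraries lie at the lower right (Il7r 18.1 to 29.1 RPKM, Il2rb 126 to 163 RPKM), apart from all 7 knockout libraries.

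Between the knockouts, CD8 cells of Vav1CreTet2KO and Cd4CreTet2KO mice gave no call for any of the 10 genes, and limma called 0% of the 10224 genes tested there (649 genes, 6.35%, had an unadjusted p under 0.05, 1 of them, Jak3, among the 10; DESeq2 on recovered reads called 95 genes and 0 of the 10). Jak3 averaged 11.5 ± 6.73 RPKM in Vav1CreTet2KO cells (n = 3) and 18.9 ± 3.46 RPKM in Cd4CreTet2KO cells (n = 4), a log2 difference of -0.82 (SE 0.34, interval -1.55 to -0.09, limma adjusted p = 0.721). Without Vav1CreTet2KO replicate 1, the library of the lowest Jak3 level, that difference was -0.36. Il7r averaged 65.8 ± 21.6 RPKM in Vav1CreTet2KO cells and 43.6 ± 11.4 RPKM in Cd4CreTet2KO cells, a log2 difference of 0.57 with an interval of -0.05 to 1.19, which holds no difference and also one of over 1 log2 unit. Only Socs2 did not overlap, being lower in Vav1CreTet2KO cells, as were 2.46% of all genes tested.

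In CD4 cells, none of the 10 genes passed the test in the Vav1CreTet2KO comparison. All 10 log2 fold changes were below 0, as were those of 7641 of the 13554 genes tested. The median of the 10 was -0.68, beside -0.16 over all genes tested. Socs3 and Jak3 were farthest apart, at 26.1 ± 3.94 and 11.2 ± 2.94 RPKM in Vav1CreTet2KO cells, against 90.1 ± 11.9 and 30.9 ± 5.12 RPKM in Tet2fl/fl cells (SD, n = 3 each). edgeR called 0 of the 10 genes, beside 1 of 13554 genes in all (0.00738% called in either direction), while 4 of the 10 and 11.9% of all genes had an unadjusted p under 0.05, and DESeq2 called 3 of the 10 (Jak3, Cish and Socs3) and 573 genes in all.

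Socs3 was at 24.2, 30.6 and 23.5 RPKM in Vav1CreTet2KO CD4 cells and at 56.0, 38.3 and 49.7 RPKM in Cd4CreTet2KO CD4 cells, against 76.5, 99.0 and 94.7 RPKM in Tet2fl/fl CD4 cells. The 3 genotypes did not overlap, with Vav1CreTet2KO lowest and Cd4CreTet2KO between. The reads behind these levels were 114, 2212 and 1157 in Vav1CreTet2KO cells and 5438, 4482 and 4982 in Cd4CreTet2KO cells, against 3832, 8564 and 9330 in Tet2fl/fl cells. The log2 fold change against Tet2fl/fl was -1.68 in Vav1CreTet2KO cells (SE 0.25, interval -2.23 to -1.14, edgeR adjusted p = 0.0744) and -0.83 in Cd4CreTet2KO cells (SE 0.25, interval -1.36 to -0.30, edgeR adjusted p = 1.00). Socs3 was called lower in Vav1CreTet2KO cells without the shallow replicate 1 (-1.66, edgeR adjusted p = 0.0245), without replicate 3 (-1.67, adjusted p = 0.00581), with no filter on low counts (adjusted p = 0.000128) and by DESeq2 (adjusted p = 3.53e-08). Over all genes, these settings called 19, 819, 383 and 573 genes. Socs3 was thus called in 2 of 6 edgeR fits with 1 library left out (adjusted p up to 0.406). Of the 6 alternatives that kept every library, 2 called it. The authors' deposited table gives Socs3 a false discovery rate of 0.000511 and Jak3 one of 0.0131 in Vav1CreTet2KO CD4 cells.

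Jak3 was at 8.72, 14.4 and 10.4 RPKM in Vav1CreTet2KO CD4 cells and at 25.1, 25.1 and 30.4 RPKM in Cd4CreTet2KO CD4 cells, against 36.7, 29.0 and 27.1 RPKM in Tet2fl/fl CD4 cells. Vav1CreTet2KO libraries lay below all others, and Cd4CreTet2KO libraries overlapped Tet2fl/fl libraries. The Jak3 log2 fold change was -1.36 in Vav1CreTet2KO cells (SE 0.27, interval -1.94 to -0.77, edgeR adjusted p = 0.110) and -0.10 in Cd4CreTet2KO cells (interval -0.67 to 0.47). Without Vav1CreTet2KO replicate 3 it was called lower at -1.36 (adjusted p = 0.0171), as it was with no filter on low counts (adjusted p = 0.0123) and by DESeq2 (adjusted p = 9.97e-05). Over all genes, these settings called 819, 383 and 573 genes. Jak3 was thus called in 1 of 6 edgeR fits with 1 library left out (adjusted p up to 0.479) and in 2 of 6 alternatives that kept every library. Cish stood likewise, at 14.2, 18.8 and 11.998 RPKM in Vav1CreTet2KO cells and 24.9, 25.3 and 26.8 RPKM in Cd4CreTet2KO cells, against 29.8, 28.6 and 23.5 RPKM in Tet2fl/fl cells. Its log2 fold change was -0.76 in Vav1CreTet2KO cells (SE 0.27, interval -1.33 to -0.19, edgeR adjusted p = 0.304) and 0.01 in Cd4CreTet2KO cells (interval -0.55 to 0.58).

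Socs2 was at 0, 1.39 and 1.18 RPKM in Vav1CreTet2KO CD4 cells and at 1.84, 1.26 and 1.99 RPKM in Cd4CreTet2KO CD4 cells, against 3.80, 3.48 and 3.03 RPKM in Tet2fl/fl CD4 cells, so that both knockouts lay below the control. The 0 came from the shallow Vav1CreTet2KO replicate 1 and allows up to 0.249 RPKM, from 3 reads. The edgeR log2 fold change was -1.82 in Vav1CreTet2KO cells (SE 0.84, interval -3.62 to -0.03, adjusted p = 0.414) and -0.93 in Cd4CreTet2KO cells (interval -2.67 to 0.82). Socs1 was at 8.93, 6.11 and 3.14 RPKM in Vav1CreTet2KO cells, just below the 9.02, 13.9 and 14.9 RPKM of Tet2fl/fl cells, and at 5.83, 9.92 and 9.21 RPKM in Cd4CreTet2KO cells. In the Vav1CreTet2KO comparison 5 genes (Jak3, Cish, Socs1, Socs2 and Socs3) lay lower without overlap, as did 12.5% of all genes tested. The sum of the 6 heat shock genes, given above, was also lower without overlap in both CD4 knockout groups, though Hsp90aa1 and Hsph1 alone overlapped. The sum of the MHC class II genes was higher without overlap in CD4 Vav1CreTet2KO cells (731, 798 and 388 RPKM, against 145, 82.9 and 198 RPKM in Tet2fl/fl cells). The part of heat shock or MHC class II genes in these differences was not tested.

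The receptor chains overlapped in both CD4 knockout comparisons. Il7r was at 40.4, 31.8 and 93.4 RPKM in Vav1CreTet2KO CD4 cells and at 76.4, 93.2 and 58.6 RPKM in Cd4CreTet2KO CD4 cells, against 84.7, 115 and 72.9 RPKM in Tet2fl/fl CD4 cells. Replicate 3 alone kept the Vav1CreTet2KO group from lying below the control, and the log2 fold change was -0.55 with it (SE 0.39, interval -1.39 to 0.28, edgeR adjusted p = 0.633) and -1.27 without it (adjusted p = 0.0278). Il2ra spread widely, at 22.2, 68.7 and 12.5 RPKM in Vav1CreTet2KO cells, against 42.9, 43.3 and 44.8 RPKM in Cd4CreTet2KO cells and 52.0, 37.7 and 37.8 RPKM in Tet2fl/fl cells. Foxp3, the factor that defines regulatory T cells, which carry Il2ra, was at 6.15, 53.6 and 20 RPKM in Vav1CreTet2KO cells. It was at 52.6, 94.4 and 69.7 RPKM in Cd4CreTet2KO cells and at 76.6, 77.4 and 51.7 RPKM in Tet2fl/fl cells. Foxp3 was highest in Vav1CreTet2KO replicate 2, as was Il2ra, but lowest in replicate 1, where Il2ra was intermediate. The 6 regulatory T cell genes, Foxp3 and Il2ra among them, summed to 242.2, 570.2 and 121.7 RPKM in Vav1CreTet2KO cells. They summed to 389.9 to 595.4 RPKM in Cd4CreTet2KO cells and 293.8 to 482.3 RPKM in Tet2fl/fl cells. The part of regulatory T cells in the Il2ra level was not tested. Il2rb was at 44.2 to 81.4 RPKM in Vav1CreTet2KO cells and 65.4 to 81.3 RPKM in Cd4CreTet2KO cells, against 65.6 to 87.3 RPKM in Tet2fl/fl cells, with a log2 fold change of -0.22 (interval -0.78 to 0.34) in Vav1CreTet2KO cells. Il2rg was at 73.5 to 125 RPKM in Vav1CreTet2KO cells and 73.4 to 102 RPKM in Cd4CreTet2KO cells, against 91.2 to 113 RPKM in Tet2fl/fl cells. Stat5a was at 5.67, 4.93 and 10.1 RPKM in Vav1CreTet2KO cells and 15.5, 10.4 and 11.96 RPKM in Cd4CreTet2KO cells, against 11.0, 16.1 and 8.15 RPKM in Tet2fl/fl cells.

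In Cd4CreTet2KO CD4 cells edgeR called 0 of the 10 genes, beside 0.0295% of all genes tested, and 1 of the 10 (Socs3) and 2.5% of all genes had an unadjusted p under 0.05. DESeq2 called 0 of the 10 there as well, beside 42 genes in all. Socs2 and Socs3 lay lower without overlap, as did 7.93% of all genes. Vav1CreTet2KO CD4 cells lay below Cd4CreTet2KO CD4 cells without overlap for Jak3, Stat5a, Cish and Socs3, as did 15.3% of all genes, and edgeR called 0 of the 10 between the knockouts, beside 0.0664% of all genes, with 3 of the 10 and 10.7% of all genes at an unadjusted p under 0.05. The Jak3 log2 fold change there was -1.26 (SE 0.27, interval -1.84 to -0.68, edgeR adjusted p = 0.0981), and that of Socs3 was -0.86 (SE 0.25, interval -1.39 to -0.32, edgeR adjusted p = 0.211). DESeq2 called Jak3, Cish and Socs3 lower, edgeR with no filter on low counts called Jak3 (adjusted p = 0.0277), and edgeR without Vav1CreTet2KO replicate 3 called Jak3 (adjusted p = 0.0241) and Il7r. Over all genes, these 3 settings called 517, 403 and 719 genes between the knockouts.

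Whether Tet2 loss acted differently on the 10 genes in the 2 cell types was tested as an interaction, the log2 difference in CD8 cells minus that in CD4 cells, in 1 limma fit of all 19 libraries. This fit treated the libraries as independent, although 8 animals gave both cell types, so its SEs and intervals ignore that pairing. limma called 0 of the 10 genes for Vav1CreTet2KO, beside 0% of 11121 genes, and 0 of the 10 for Cd4CreTet2KO, beside 0.0629% of all genes. At an unadjusted p under 0.05 were 3 of the 10 (Il2rb, Il7r and Socs3) and 9.21% of all genes for Vav1CreTet2KO, and 4 of the 10 (those 3 and Cish) and 5.72% of all genes for Cd4CreTet2KO, and edgeR on counts and recovered reads called 0 of the 10 in either. For Il7r the interaction was 2.34 in Vav1CreTet2KO mice (SE 0.51, interval 1.28 to 3.41, limma adjusted p = 0.144) and 1.19 in Cd4CreTet2KO mice (SE 0.49, interval 0.16 to 2.22, limma adjusted p = 0.791). For Socs3 it was 1.73 in Vav1CreTet2KO mice (SE 0.47, interval 0.73 to 2.72, limma adjusted p = 0.284) and 1.57 in Cd4CreTet2KO mice (SE 0.46, interval 0.61 to 2.53, limma adjusted p = 0.472). For Il2rb it was -0.98 in Vav1CreTet2KO mice (interval -1.90 to -0.06, limma adjusted p = 0.512) and -1.09 in Cd4CreTet2KO mice (interval -1.98 to -0.20, limma adjusted p = 0.762). The Il7r interaction in Vav1CreTet2KO mice passed without CD4 Vav1CreTet2KO replicate 3 (2.796, adjusted p = 0.0197), and with the animal as a block its adjusted p was 0.0607. With that block limma called 0 of the 10 genes for either knockout, beside 9 genes in all for each.

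The order of levels over the 6 groups, set across tables that the authors normalized separately, differed between receptor genes. Mean Il7r was highest in CD4 Tet2fl/fl cells (90.7 ± 21.5 RPKM) and lowest in CD8 Tet2fl/fl cells (22.2 ± 5.99 RPKM), with both CD8 knockouts in between. Each group overlapped its neighbour in that order except the last step, where CD8 Cd4CreTet2KO cells (43.6 ± 11.4 RPKM) lay apart from CD8 Tet2fl/fl cells. Mean Il2rb was highest in CD8 Tet2fl/fl cells (139 ± 21.0 RPKM), apart from the next group, CD4 Tet2fl/fl cells (79.7 ± 12.2 RPKM), below which all neighbours overlapped. Il2ra had its 3 highest means in the CD4 groups (34.5 to 43.7 RPKM) and its 3 lowest in the CD8 groups (7.45 to 19.01 RPKM), with overlap at each step. Il2rg (71.0 to 101 RPKM) and Stat5a (6.90 to 13.4 RPKM) overlapped at each step. Jak3 and Cish had an upper set of both Tet2fl/fl groups and CD4 Cd4CreTet2KO cells (26.9 to 31.3 RPKM for Jak3, 25.7 to 27.3 RPKM for Cish), which did not overlap the next group down, CD8 Cd4CreTet2KO cells for Jak3 (18.9 ± 3.46 RPKM) and CD4 Vav1CreTet2KO cells for Cish (15.02 ± 3.48 RPKM). Mean Socs3 was highest in CD4 Tet2fl/fl cells (90.1 ± 11.9 RPKM), apart from all others, and Socs2 as well (3.44 ± 0.38 RPKM), with CD8 Vav1CreTet2KO cells (0.178 ± 0.163 RPKM) also apart at its low end, while Socs1 (6.06 to 12.6 RPKM) overlapped at each step.

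Both cell types came from the same animal in 8 mice, 3 Vav1CreTet2KO, 2 Cd4CreTet2KO and 3 Tet2fl/fl. Il2ra was lower in CD8 than in CD4 cells in all 8, at 0.0716 to 0.538 times its CD4 level, and Socs2 was lower in all but 1 animal, a Vav1CreTet2KO mouse with no Socs2 read in either cell type. Il2rb was higher in CD8 than in CD4 cells in 3 of 3 Tet2fl/fl animals (1.44 to 1.95 times), in 2 of 2 Cd4CreTet2KO animals (1.06 to 1.19 times) and in 1 of 3 Vav1CreTet2KO animals (0.593 to 1.19 times). Il7r was at 0.953 to 1.95 times its CD4 level in CD8 cells of Vav1CreTet2KO animals and at 0.569 to 0.627 times in Cd4CreTet2KO animals, against 0.213 to 0.267 times in Tet2fl/fl animals. These 3 ranges of Il7r did not overlap, and the share of all genes whose ranges part in this way was not worked out. For Socs3 the ratio was 0.874 to 1.15 in Vav1CreTet2KO animals and 1.03 to 1.29 in Cd4CreTet2KO animals, against 0.203 to 0.403 in Tet2fl/fl animals. These are descriptions with no test, since the tables were normalized separately.

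**Figure D4:**
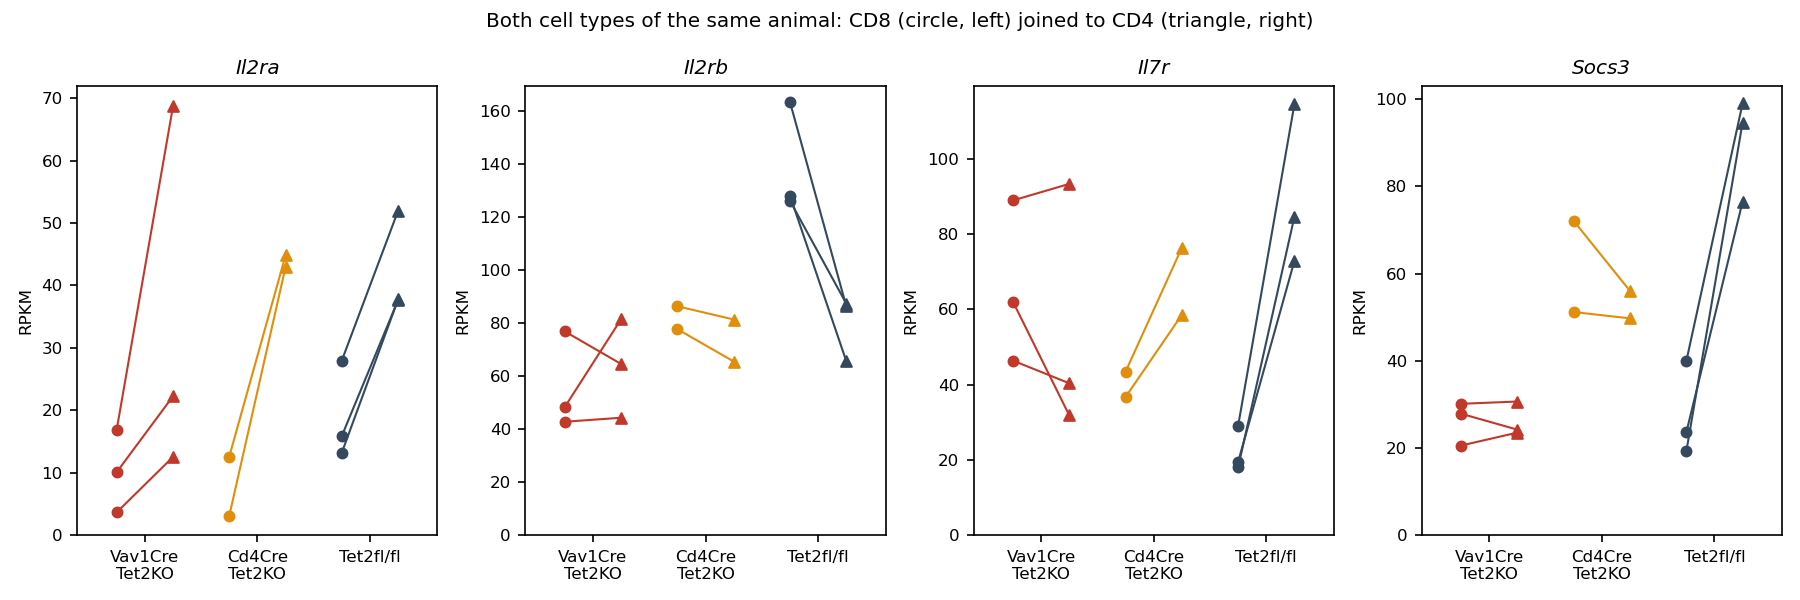
Il2ra, Il2rb, Il7r and Socs3 in RPKM (vertical axes, from 0) in CD8 cells (circles) joined to CD4 cells (triangles) of the same animal, for 3 Vav1CreTet2KO, 2 Cd4CreTet2KO and 3 Tet2fl/fl animals. Lines for Il7r and Socs3 climb steeply in the 3 Tet2fl/fl animals (CD8 at 0.213 to 0.267 and 0.203 to 0.403 times the CD4 level), and are flatter or fall in knockout animals.

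The other genes of the pathway were read from 6 lists of 53 genes, and 0 of their tested members were called in any comparison or interaction. Of 7 cytokines of the common gamma chain family, 0 passed the filter on low values in CD8 cells and 2 (Il2 and Il21) in CD4 cells, where Il21, a cytokine of helper T cells, had a log2 fold change of 1.35 in Vav1CreTet2KO cells (SE 1.96, edgeR adjusted p = 0.847). Of 9 other JAK and STAT genes, Stat3, the STAT of IL-6, IL-10 and IL-21 signals, had the smallest p in both CD8 knockout comparisons, with log2 differences of -1.20 in Vav1CreTet2KO cells (SE 0.32, limma adjusted p = 0.0827) and -0.86 in Cd4CreTet2KO cells (SE 0.30, limma adjusted p = 0.227). In CD4 cells Stat3 was at -0.51 in Vav1CreTet2KO against Tet2fl/fl cells (edgeR adjusted p = 0.397) and at -0.85 against Cd4CreTet2KO cells (edgeR adjusted p = 0.166). Of 4 tested receptors, Il15ra, the alpha chain that presents IL-15, had the smallest p in CD8 cells, with log2 differences of -1.01 in Vav1CreTet2KO cells (limma adjusted p = 0.123) and -0.69 in Cd4CreTet2KO cells (limma adjusted p = 0.337). In Vav1CreTet2KO CD4 cells, where 5 receptors were tested, it was Il4ra, the IL-4 receptor chain that pairs with Il2rg, at -0.78 (edgeR adjusted p = 0.368). Of 12 further feedback regulators, Ptpn11, which encodes the phosphatase SHP2, was at -0.95 in both CD8 comparisons (limma adjusted p = 0.102 for Vav1CreTet2KO and 0.118 for Cd4CreTet2KO), and in Vav1CreTet2KO CD4 cells Ptpn6, which encodes SHP1, was at 0.85 (edgeR adjusted p = 0.394).

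Of 13 STAT5 target genes outside the 10, 10 lay below 0 in Vav1CreTet2KO CD8 cells and 9 in Cd4CreTet2KO CD8 cells. Of all 10224 genes tested, 5975 and 6814 lay below 0 in the same comparisons. The medians of the 13 were -0.37 and -0.56, beside -0.11 and -0.15 over all genes tested. Foxp3 had the smallest p in Vav1CreTet2KO CD8 cells, at -1.26 (limma adjusted p = 0.0751), from low levels of 0.477 to 0.852 RPKM in Vav1CreTet2KO cells, against 2.23 to 4.04 RPKM in Tet2fl/fl cells. Bcl2l1, the survival gene that encodes BCL-XL, had the smallest p in Cd4CreTet2KO CD8 cells, at -1.09 (limma adjusted p = 0.170). In Vav1CreTet2KO CD4 cells 12 of the 13 lay below 0, as did 7641 of all 13554 genes tested. The median of the 13 was -0.82, beside -0.16 over all genes. Mcl1, another survival gene, had the smallest p there, at -0.82 (edgeR adjusted p = 0.246). In Cd4CreTet2KO CD4 cells 7 of the 13 lay below 0, as did 6738 of all 13554 genes tested. The median of the 13 was -0.23, beside 0.003 over all genes. Bcl2, the survival gene known as a readout of IL-7 signals, had the smallest p there, at -0.93 (edgeR adjusted p = 1.00). Of 7 transcription factors known to act on Il7r, Foxp1, known in mice as a brake on Il7r, had the smallest p in CD8 cells. Its log2 difference was 0.75 in Vav1CreTet2KO cells (SE 0.22, limma adjusted p = 0.119) and 0.59 in Cd4CreTet2KO cells (SE 0.21, limma adjusted p = 0.248). In Vav1CreTet2KO CD4 cells it was Gabpa, whose product binds the Il7r promoter in mice, at 0.93 (edgeR adjusted p = 0.328).

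Genes whose levels followed those of 3 of the 10 most closely were named by Pearson correlation of log2(RPKM + 1), over 10 CD8 libraries and 6094 genes and over 9 CD4 libraries and 5799 genes. These correlations pool genotypes that differ in level and libraries that differ in depth, and they are given as descriptions. In CD8 cells Il7r was followed by Mylip (0.907), Dyrk2 (0.904) and F2rl1 (0.886), Il2ra by Zc3h12c (0.965), Zscan29 (0.960) and Nrip1 (0.959), and Cish by Mllt6 (0.973), Pi4ka (0.967) and Rprd2 (0.965). In CD4 cells Il7r was followed by Kmt2c (0.967), Xxylt1 (0.959) and Mnt (0.956), Il2ra by Gbp3 (0.956) and Ehd1 (0.942), and Cish by Itgae (0.991), Jak3 (0.962) and Ncmap (0.962). No gene was named for the same target in both cell types.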

How the data were processed

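Total RNA of sorted T cells was sequenced in 19 libraries. The CD8 table held the RPKM values that the authors deposited, and the CD4 table held the authors' read counts and RPKM values. The authors' deposited tables of log2 fold changes with p-values and false discovery rates were used only where named. Per the submitters' processing notes, GRCm38 and mm10 were the builds named, with no role given, and no source used here names the aligner or counter. The coordinates deposited by the authors did not match GRCm38 and are not printed. 18 other per-sample columns were not used.

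CD8 RPKM were tested with limma 3.58.1 (trend) on log2(RPKM + 1) for the 10224 genes with at least 1 RPKM in at least 3 libraries. CD4 counts were tested with edgeR 4.0.16 (quasi-likelihood, robust, TMM) for the 13554 genes past filterByExpr (minimum count 10, total 15), and each fit held all 3 genotypes. Benjamini-Hochberg adjustment ran over all genes tested, with a threshold of 0.05. The interaction was fitted with limma on 11121 genes of all libraries. Whole reads were recovered from the CD8 RPKM, with 134905 of 134905 values above 0 within 0.01 of a whole number, for DESeq2 1.42.0 and edgeR as alternatives. Depth, 8189300 to 20327809 reads on genes in CD8 and 707866 to 17575534 in CD4 libraries, limits precision for counting error only. All fits were run in R 4.3.3. The limma fit of CD8 cells and the edgeR fit of CD4 cells were tested on simulated data for Vav1CreTet2KO against Tet2fl/fl. The DESeq2, interaction and block fits were not tested in this way.

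The 10 genes and all lists were chosen with earlier results of these data known. All 10 are named in each comparison, with the called genes of each list or else its gene of smallest p, and the 3 genes of highest correlation with Il7r, Il2ra and Cish, of which 1 is not reported here. Replicate numbers were not taken to pair genotypes, since same-numbered libraries deviated together with correlations of -0.0758 to 0.0651 in CD8 and -0.0914 to 0.104 in CD4 cells. Same-numbered animals are not the same mouse. Alternatives covered scaling, filters, the pseudocount, the tool, the groups fitted, blocks and each library left out.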

Additional observations from a re-analysis of the deposited data

How the results depend on the processing

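The number of the 10 genes called depended on the tool and the filter. For CD8 Vav1CreTet2KO against Tet2fl/fl cells it was 1 as reported, 0 with no filter on low values, with RPKM divided by size factors, with edgeR on recovered reads and with the compared groups alone, and 3 with DESeq2 on recovered reads (Il2rb, Il7r and Jak3), and leaving out 1 library gave 0 to 3. For CD8 Cd4CreTet2KO against Tet2fl/fl cells it was 0 as reported, 1 with DESeq2 (Il2rb) and 2 with the compared groups alone (Il2rb and Cish), and 0 to 0 with 1 library left out. For CD4 Vav1CreTet2KO against Tet2fl/fl cells it was 0 as reported, 2 with no filter on low counts and 3 with DESeq2, and 0 to 3 with 1 library left out. For CD4 Vav1CreTet2KO against Cd4CreTet2KO cells it was 0 as reported, 1 with no filter, 3 with DESeq2 and 0 to 2 with 1 library left out. The Vav1CreTet2KO interaction gave 0 to 1, and the other comparisons gave 0 throughout. The cause was not tested. Over all genes, the count ran over the alternatives that kept every library from 20 to 931 (149 as reported) in CD8 Vav1CreTet2KO, 0 to 606 (58) in CD8 Cd4CreTet2KO, 1 to 573 (1) in CD4 Vav1CreTet2KO and 2 to 42 (4) in CD4 Cd4CreTet2KO comparisons with Tet2fl/fl cells, 0 to 95 (0) in CD8 and 3 to 517 (9) in CD4 cells between the knockouts, and 1 to 9 (0) and 2 to 9 (7) in the Vav1CreTet2KO and Cd4CreTet2KO interactions. With 1 library left out it ran, in the same order, from 0 to 234, 0 to 39, 0 to 819, 0 to 4, 0 to 1, 2 to 719, 0 to 155 and 0 to 5. The CD8 Vav1CreTet2KO count of 149 was 0 without CD8 Tet2fl/fl replicate 1, and the 819, 719 and 155 came without CD4 Vav1CreTet2KO replicate 3.

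With the replicate number as a block, the count of called genes among the 10 changed in no comparison (Il7r in CD8 Vav1CreTet2KO cells, adjusted p = 0.0442), and between the CD8 knockouts Il2rb turned to 0.016 and Socs1 to 0.19 on the log2 scale. That fit in effect leaves out CD8 Cd4CreTet2KO replicate 4, which has no partner. Other near-zero values turned sign: Socs3 in CD8 Vav1CreTet2KO cells to 0.066 with size factors; in CD4 Cd4CreTet2KO cells Il2rb to -0.0026 (RLE size factors), -0.0026 (DESeq2) and -0.090 (limma on RPKM), and Cish to -0.0023, -0.0022 and -0.080; and, in edgeR on counts and recovered reads, an alternative chosen after seeing the data, the interactions of Socs2 (Vav1CreTet2KO, -0.79) and Socs1 (Cd4CreTet2KO, 0.13). With 1 library left out, log2 values ran across 0 in CD8 Vav1CreTet2KO against Tet2fl/fl cells for Il2rg (-0.12 to 0.19) and Socs3 (-0.24 to 0.27), between the CD8 knockouts for Cish (-0.77 to 0.16), Il2ra (-0.074 to 0.90), Socs1 (-0.43 to 0.19) and Il2rb (-0.40 to 0.016), in CD4 Vav1CreTet2KO against Tet2fl/fl cells for Il2rg (-0.19 to 0.079) and Il2ra (-1.12 to 0.13), in CD4 Cd4CreTet2KO against Tet2fl/fl cells for Jak3 (-0.21 to 0.022), Il7r (-0.36 to 0.060), Il2rb (-0.069 to 0.16) and Cish (-0.040 to 0.10), between the CD4 knockouts for Il2rg (-0.065 to 0.21), in the Vav1CreTet2KO interaction for Stat5a (-0.54 to 0.19), Jak3 (-0.53 to 0.33), Socs1 (-0.082 to 0.60) and Il2ra (-0.88 to 0.31), and in the Cd4CreTet2KO interaction for Socs1 (-0.33 to 0.10). Of 486 values of the 10 genes under the other alternatives, 457 kept direction and side of the threshold, as did 574 of 630 with 1 library left out. Nearly all of these were values not called as reported, so keeping the side mostly meant staying uncalled. The 1 call, Il7r in CD8 Vav1CreTet2KO cells, held in 3 of 7 other alternatives and in 1 of 6 fits with 1 library left out. Scaling by size factors moved the median of all genes by over 0.1 in CD8 Cd4CreTet2KO cells (-0.15 as reported, 0.0031 with size factors), and in CD4 Vav1CreTet2KO cells it left it at -0.16. Depth limits Socs2 most, with no read in 2 libraries.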

Other observations

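Across the 10 CD8 libraries, the 45 pairs of the 10 genes had Pearson correlations of log2(RPKM + 1) between -0.823 and 0.934, with a median of 0.311, and across the 9 CD4 libraries between -0.337 and 0.962, with a median of 0.506. The libraries differ in genotype and depth, so these values are descriptions.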
